A study of Mus musculus with 11 samples.

Results

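The transcripts described here encode the receptors of the common gamma chain cytokines, a family that includes interleukin-7 (IL-7). They were chosen by name as the known mouse subunits of this family: Il7r, Il2rg, Il2ra, Il2rb, Il4ra, Il15ra, Il21r and Il9r, 8 genes of the 46078 rows in the count table. Earlier results of these data were known when that choice was made. All 8 were found and all 8 passed the filter on low counts, which left 16365 genes for testing. Wild-type (WT) mice had been immunised with recombinant mouse myeloperoxidase (MPO), and glomerulonephritis was then started with low-dose sheep globulin directed at mouse basement membrane. Kidneys were taken 21 days after the globulin, and T cells were flow sorted on CD4 or CD8, on CD127 (the protein made from Il7r) and on PD-1, an inhibitory receptor. The groups were CD4+CD127+PD-1- (n = 3 libraries), CD4+CD127-PD-1+ (n = 2), CD8+CD127+PD-1- (n = 3) and CD8+CD127-PD-1+ (n = 3). Every group came from immunised, globulin-treated WT kidneys, so no library represents a healthy kidney. Each library held cells pooled from 3 mice, and the spread given below is therefore between pools and not between animals.

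Each receptor of this family is assembled at the cell surface from a private chain, sometimes a second partner, and the common gamma chain, which Il2rg encodes. Il7r pairs with the gamma chain to bind IL-7, Il4ra to bind IL-4, Il21r to bind IL-21 and Il9r to bind IL-9. Il2rb and the gamma chain form the signalling pair for both IL-2 and IL-15, to which Il2ra and Il15ra add high affinity for their own cytokine. The receptors signal through the kinases JAK1 and JAK3 to STAT proteins, chiefly STAT5 for IL-7, IL-2 and IL-15, STAT6 for IL-4 and STAT3 for IL-21. In T cells IL-7 and IL-15 are known for survival and for the maintenance of memory cells, and Il7r is known to be high on naive and memory T cells and low on effector and exhausted ones.

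Among these 8 genes, 6 encode chains of the type I cytokine receptor class, whose extracellular part carries a short tryptophan-serine signature called the WSXWS motif. The coding stretches around that motif are shown because they mark which chains belong to this class. They were read from the GRCm38 genome with GENCODE M21 exons, 5′ to 3′ on the coding strand, with the 15 bases of the motif in capitals and 9 bases on either side:
Il7r: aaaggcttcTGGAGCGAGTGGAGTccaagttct
Il2rg: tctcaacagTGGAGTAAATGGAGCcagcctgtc
Il2rb: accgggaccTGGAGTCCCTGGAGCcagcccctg
Il4ra: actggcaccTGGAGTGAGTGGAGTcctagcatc
Il21r: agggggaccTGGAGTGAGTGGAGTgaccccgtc
Il9r: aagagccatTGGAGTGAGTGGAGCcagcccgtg
The motif lies in exon 5 of Il7r (chr15:9511151-9511165, minus strand) and in exon 5 of Il2rg (chrX:101266215-101266229, minus strand). In Il2rb it is in exon 7 (chr15:78485763-78485777, minus strand) and in Il4ra in exon 7 (chr7:125571554-125571568, plus strand). Il21r (chr7:125628998-125629012, plus strand) and Il9r (chr11:32193211-32193225, minus strand) carry it in exon 6. No such stretch was found in the coding sequences of Il2ra and Il15ra, which encode chains of another build, the sushi-domain alpha chains.

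The genes with such alpha chains, Il2ra (ENSMUSG00000026770, chromosome 2, 11642807 to 11693193) and Il15ra (ENSMUSG00000023206, chromosome 2, 11705290 to 11734317), are neighbours on the plus strand with 12.1 kb between them. Il4ra (ENSMUSG00000030748, chromosome 7, 125552120 to 125579474) and Il21r (ENSMUSG00000030745, chromosome 7, 125603429 to 125633570) are neighbours as well, 23954 bases apart and both on the plus strand. Il7r (ENSMUSG00000003882, 9505788 to 9530176) and Il2rb (ENSMUSG00000068227, 78479256 to 78495271) lie far apart on the minus strand of chromosome 15. Il2rg (ENSMUSG00000031304, 101264378 to 101268255) is on the minus strand of chromosome X and Il9r (ENSMUSG00000020279, 32187541 to 32200279) on that of chromosome 11. Il2rg shares 728 exonic bases with the predicted gene Gm20489, which held 7 counts over the 11 libraries, and Il4ra shares 571 exonic bases with the antisense gene Gm44876. The strand setting of the counting is not given in the sources used here, so antisense reads over Il4ra cannot be told apart from its own.

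Each library held 10.6 M to 16.1 M counts, and 20514 to 21849 genes were detected per library. Mitochondrial genes took 30.0% to 33.8% of counts in 8 libraries and 38.5% to 44.8% in the 3 CD8+CD127-PD-1+ libraries, and leaving these genes out changed no call on the 8 receptor genes. A list of 10 pan-T genes (Cd3d, Cd3e, Lck and others) summed to between 1234 and 2233 CPM (normalised counts on TMM-scaled library sizes, the edgeR unit) in each library, and 0 of 10 passed the edgeR test in either state comparison. Other cell types were also seen in the sorted RNA: 14 myeloid genes summed to 157 to 343 CPM in the CD127+PD-1- libraries and to 1353 to 2810.4 CPM in the CD127-PD-1+ libraries, and 13 of the 14 were called higher in both lineages, none of the 14 being at 0 in any group. In contrast, 8 plasmacytoid dendritic genes summed to 678 to 1834 CPM in CD127+PD-1- and 412 to 495 CPM in CD127-PD-1+ libraries, with 5 of 8 called lower in CD4 and 4 of 8 in CD8 cells. In the CD8 state comparison 5 of 8 B cell genes (summing to 17.3 to 71.8 against 120.4 to 307 CPM) and 5 of 6 tested neutrophil genes (2.43 to 16.2 against 37.2 to 242 CPM) were called higher as well. Il1rl1 (1.82) and Ncr1 (1.98), genes of innate lymphoid and natural killer cells, were also called higher. However, the summed genes listed for innate lymphoid and natural killer cells overlapped between the CD8 groups (58.0 to 124 against 78.5 to 105 CPM). In the CD4 state comparison no B cell gene and 1 of 6 tested neutrophil genes, Csf3r (3.87), was called higher. Over all tested genes 6.81% were called higher and 4.87% lower in the CD4 state comparison, and 9.05% and 6.56% in the CD8 one. The part of these other cell types in the results below was not tested, and fewer cells of a type and less RNA per cell cannot be told apart in such bulk samples.

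Il7r is the gene of a sort marker, so its levels check the labels and are no finding. Among CD4 cells it stood at 345, 355 and 455 CPM in CD127+PD-1- libraries and 15.5 and 27.2 CPM in CD127-PD-1+ libraries. In CD8 cells the values were 352, 421 and 329 CPM against 13.8, 17.5 and 17.0 CPM. Every CD127+ library was far above every CD127- library, by log2 fold changes of -4.17 in CD4 and -4.51 in CD8 cells, which are 18.0-fold and 22.8-fold lower levels. Between lineages the levels overlapped in both states, with CD4 minus CD8 log2 differences of 0.068 (95% interval -0.34 to 0.48) in CD127+PD-1- and 0.41 (-0.074 to 0.90) in CD127-PD-1+ cells.

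**Figure D1:**
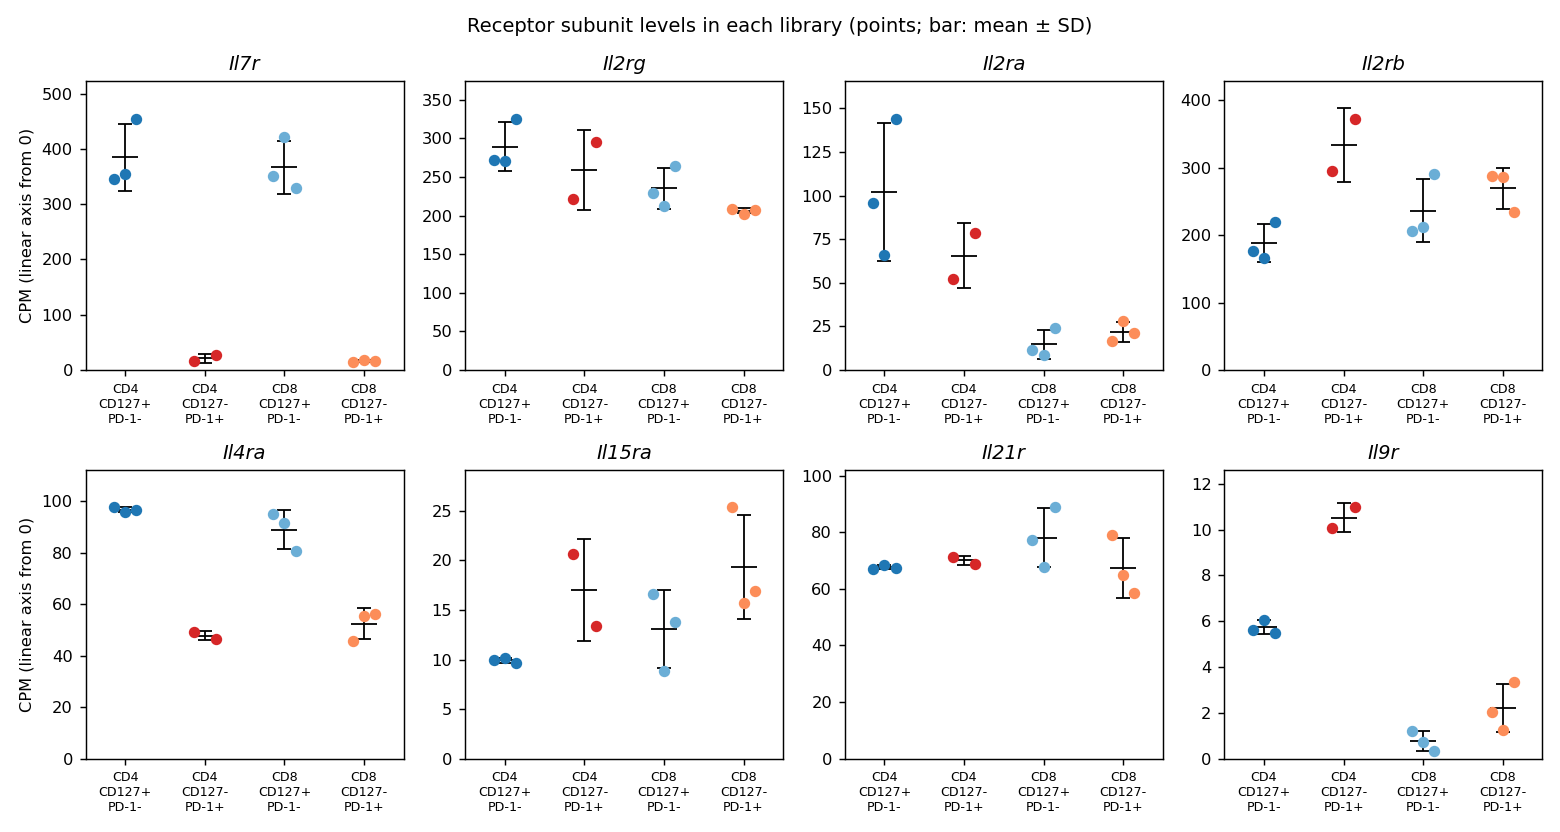
Level of each receptor subunit gene in each of the 11 libraries, in CPM on a linear axis that starts at 0 and differs between panels. Points are libraries and the black bar is the group mean ± SD (n = 3, 2, 3 and 3). Il7r and Il4ra are low in both CD127-PD-1+ groups, and Il2ra and Il9r are high in both CD4 groups. Il2rb has its highest mean in CD4+CD127-PD-1+, with 1 library of that group close to the highest CD8 libraries.

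Il2rg, the shared chain, differed little among the populations. It measured 272, 271 and 326 CPM in CD4+CD127+PD-1-, 222 and 296 in CD4+CD127-PD-1+, 229, 213 and 265 in CD8+CD127+PD-1-, and 209, 203 and 207 in CD8+CD127-PD-1+. The CD4 libraries of both states overlapped, whereas the 3 CD8+CD127-PD-1+ libraries all lay just under the lowest CD8+CD127+PD-1- library. The state changes were -0.16 on the log2 scale in CD4 (95% interval -0.47 to 0.15, edgeR adjusted p = 0.533) and -0.19 in CD8 cells (-0.47 to 0.086, adjusted p = 0.353). These intervals exclude a change of 1 on the log2 scale in either direction. CD4 cells were 0.30 (adjusted p = 0.247) and 0.33 (adjusted p = 0.339) above CD8 cells in the CD127+PD-1- and CD127-PD-1+ states, and neither difference passed.

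Apart from Il7r, which the sort fixes, 2 of 7 members passed the edgeR test in the CD4 state comparison (CD127-PD-1+ against CD127+PD-1-), Il2rb upward and Il4ra downward, where 11.7% of all 16365 tested genes were called. In the CD8 state comparison 2 of 7 passed, Il9r upward and Il4ra downward, against 15.6% of tested genes. The median change of the 7 members was 0.051 in CD4 and 0.19 in CD8 cells, beside 0.023 and 0.0094 over all tested genes. Libraries of the compared groups did not overlap for 40.7% of tested genes in the CD4 and 34.4% in the CD8 comparison, so non-overlap by itself is common here. The 8 log2 changes are shown in the plot of state changes.

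**Figure D2:**
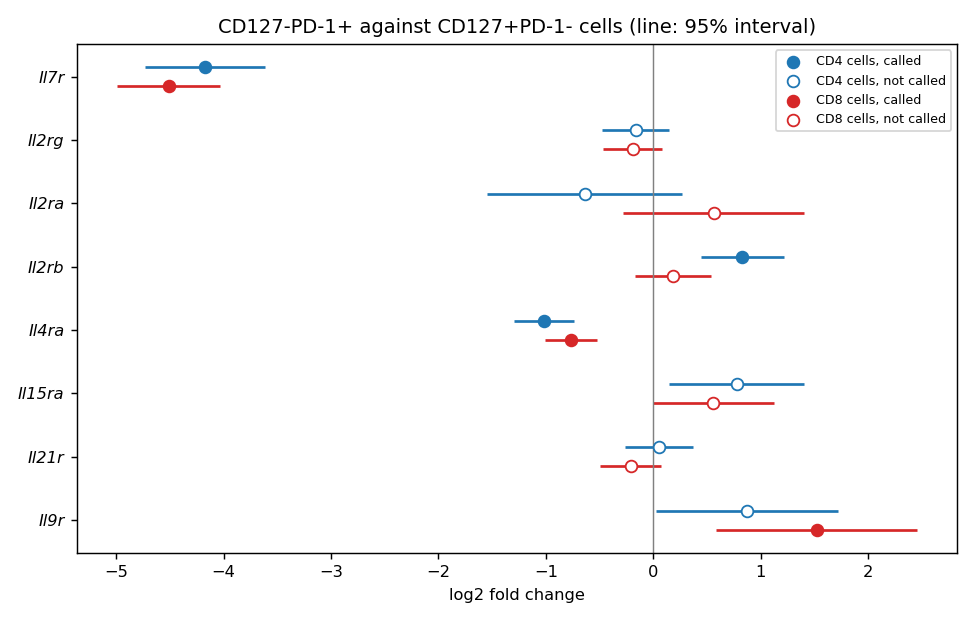
Log2 fold change of each receptor gene in CD127-PD-1+ against CD127+PD-1- cells, for CD4 (2 against 3 libraries) and CD8 cells (3 against 3). Lines are 95% intervals of the edgeR fit and filled points passed the adjusted threshold of 0.05. Il7r reflects the sort, Il4ra fell in both lineages (-1.02 and -0.76), Il2rb rose in CD4 cells (0.83), and Il9r in CD8 cells (1.52). The Il9r call was lost in 8 of the 20 alternative settings, and the Il2rb call in some of them.

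Il4ra, the chain that binds IL-4 and that with the IL-13 receptor chain Il13ra1 also binds IL-13, fell in both lineages. Its CD4 values were 97.6, 95.7 and 96.6 CPM in CD127+PD-1- and 49.0 and 46.5 CPM in CD127-PD-1+ libraries. Its CD8 values were 94.97, 91.3 and 80.5 against 45.5, 55.4 and 56.2 CPM. The 6 CD127+PD-1- libraries were all above 80 CPM and the 5 CD127-PD-1+ libraries all below 57 CPM. Il4ra changed by -1.02 ± 0.13 (SE) on the log2 scale in CD4 cells (2.02-fold lower, edgeR adjusted p = 0.000657) and by -0.76 ± 0.11 in CD8 cells (1.70-fold lower, adjusted p = 0.000889). The call held in each of the 20 alternative settings in both lineages, with log2 changes between -1.05 and -0.67 when single libraries were left out. Between lineages Il4ra differed by 0.12 (adjusted p = 0.648) and -0.13 (adjusted p = 0.734), and its state change in CD4 minus that in CD8 cells was -0.25 (95% interval -0.61 to 0.11, adjusted p = 0.956).

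Il2rb, the chain shared by the IL-2 and IL-15 receptors, rose in CD4 cells. Its levels were 177, 167 and 220 CPM in CD4+CD127+PD-1- and 295 and 373 CPM in CD4+CD127-PD-1+ libraries. In CD8 cells it measured 207, 212 and 291 against 288, 286 and 234 CPM. Both CD4+CD127-PD-1+ libraries stood above every other library, while the CD8 groups overlapped. The lower CD4+CD127-PD-1+ library, at 295 CPM, lay just over the highest CD8 library, at 291 CPM. Il2rb was not called between lineages in either state. In the CD127-PD-1+ state its CD4 minus CD8 log2 difference ran from 0.12 to 0.47 over the 20 alternative settings. The CD4 change was 0.83 ± 0.18 (1.78-fold, edgeR adjusted p = 0.0123) and the CD8 change 0.19 (95% interval -0.17 to 0.54, adjusted p = 0.487). The difference between these changes, 0.64 (95% interval 0.12 to 1.17), had an unadjusted p of 0.0212 and an adjusted p of 0.826 in the edgeR fit, so the rise was not shown to be particular to CD4 cells. The CD4 call was lost without CD4+CD127+PD-1- replicate 2 (change of 0.75 with an adjusted p of 0.050003) and without replicate 2 of CD4+CD127-PD-1+ (0.66, 0.0981). In the CD4+CD127-PD-1+ libraries the myeloid genes summed to 2745 CPM in replicate 1 (Il2rb 295 CPM) and to 1353 CPM in replicate 2 (Il2rb 373 CPM). A group of 2 libraries cannot show whether such levels go together, and the part of myeloid cells in the Il2rb change was not tested.

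Il2ra, the IL-2 receptor alpha chain that marks activated and regulatory T cells, separated the lineages more than the states. CD4 libraries held 95.8, 65.7 and 144 CPM in the CD127+PD-1- state and 52.2 and 78.6 CPM in the CD127-PD-1+ state. CD8 libraries held 11.5, 8.43 and 24.3 CPM and 16.6, 27.8 and 21.2 CPM. Within each lineage the states overlapped, whereas all 5 CD4 libraries were above all 6 CD8 libraries. The state changes were -0.64 in CD4 (95% interval -1.55 to 0.27, edgeR adjusted p = 0.377) and 0.56 in CD8 cells (-0.28 to 1.41, adjusted p = 0.366), and their difference of -1.20 did not pass (-2.44 to 0.037, adjusted p = 0.891). Without CD8+CD127+PD-1- replicate 3, the highest library of its group, the CD8 change was 1.13 with an adjusted p of 0.0476.

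Il15ra, which holds IL-15 for presentation to the shared IL-2 and IL-15 receptor pair, was a low-level transcript with wide spread. It measured 9.95, 10.1 and 9.68 CPM in CD4+CD127+PD-1- and 20.6 and 13.4 CPM in CD4+CD127-PD-1+ libraries. In CD8 cells the values were 16.6, 8.87 and 13.8 against 25.3, 15.7 and 16.9 CPM. The CD4 groups did not overlap and the CD8 groups did. Changes of 0.78 in CD4 (95% interval 0.15 to 1.40, edgeR adjusted p = 0.111) and 0.56 in CD8 cells (-0.0049 to 1.12, adjusted p = 0.174) did not pass.

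Il21r, the receptor chain for the follicular helper cytokine IL-21, was the steadiest of the private chains. Its levels were 67.1, 68.6 and 67.3 CPM in CD4+CD127+PD-1-, 71.3 and 68.9 in CD4+CD127-PD-1+, 77.4, 67.9 and 88.8 in CD8+CD127+PD-1-, and 79.0, 64.8 and 58.5 in CD8+CD127-PD-1+ libraries. The 5 CD4 libraries were within 5 CPM of each other. The state change was 0.051 in CD4 (95% interval -0.27 to 0.37, edgeR adjusted p = 0.876) and -0.21 in CD8 cells (-0.49 to 0.073, adjusted p = 0.314).

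Il9r, the receptor chain for IL-9, was the rarest member, with 59 to 169 counts in CD4 libraries and 5 to 45 in CD8 libraries. It measured 5.64, 6.07 and 5.49 CPM in CD4+CD127+PD-1- and 10.1 and 10.97 CPM in CD4+CD127-PD-1+ libraries. In CD8 cells it measured 1.21, 0.733 and 0.346 against 2.05, 1.27 and 3.35 CPM. The groups did not overlap in either lineage, but in CD8 cells the nearest libraries of the 2 groups held 18 and 17 counts (1.21 and 1.27 CPM). The CD8 change of 1.52 ± 0.43 passed (2.88-fold, edgeR adjusted p = 0.0325), and the CD4 change of 0.88 did not (95% interval 0.029 to 1.72, adjusted p = 0.179). The difference between the changes was -0.65 (95% interval -1.91 to 0.61, adjusted p = 0.990). The CD8 call was lost with limma-voom (adjusted p = 0.0624), in a fit of the compared groups only (0.102), and without CD8+CD127+PD-1- replicate 2 (0.0946) or 3 (0.0789) or CD8+CD127-PD-1+ replicate 1 (0.0559) or 3 (0.142). In the fit of the compared groups only, the CD4 change passed instead (0.87, adjusted p = 0.0453).

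Set against CD8 cells of the same state, CD4 cells held more Il2ra and Il9r, as the plot of lineage differences shows. In the CD127+PD-1- state 2 of 7 members other than Il7r passed, both higher in CD4 cells, where 4.42% of tested genes were called. In the CD127-PD-1+ state 1 of 7 passed, Il9r, where 2.44% were called. The median difference of the 7 members was 0.12 and 0.31, beside -0.012 and -0.015 over all tested genes, and groups did not overlap for 22.8% and 27.8% of all tested genes. Il2ra was higher by 2.78 ± 0.40 in CD127+PD-1- cells (6.89-fold, edgeR adjusted p = 0.00195) and by 1.58 ± 0.41 in CD127-PD-1+ cells, which missed the threshold (2.99-fold, adjusted p = 0.0773). Il9r was higher by 2.89 ± 0.42 (7.40-fold, adjusted p = 0.00211) and by 2.24 ± 0.40 (4.72-fold, adjusted p = 0.0132). For both genes the CD127+PD-1- calls held in each of the 20 alternative settings. The Il9r call in CD127-PD-1+ cells had adjusted p-values of 0.0865 and 0.0539, and was lost, when replicate 2 of CD4+CD127-PD-1+ or of CD8+CD127-PD-1+ was left out. In that state Il2ra passed with DESeq2 (adjusted p = 0.00462), with no filter on low counts (0.000222), in the compared groups only (0.0367) and without CD8+CD127+PD-1- replicate 3 (0.0223).

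**Figure D3:**
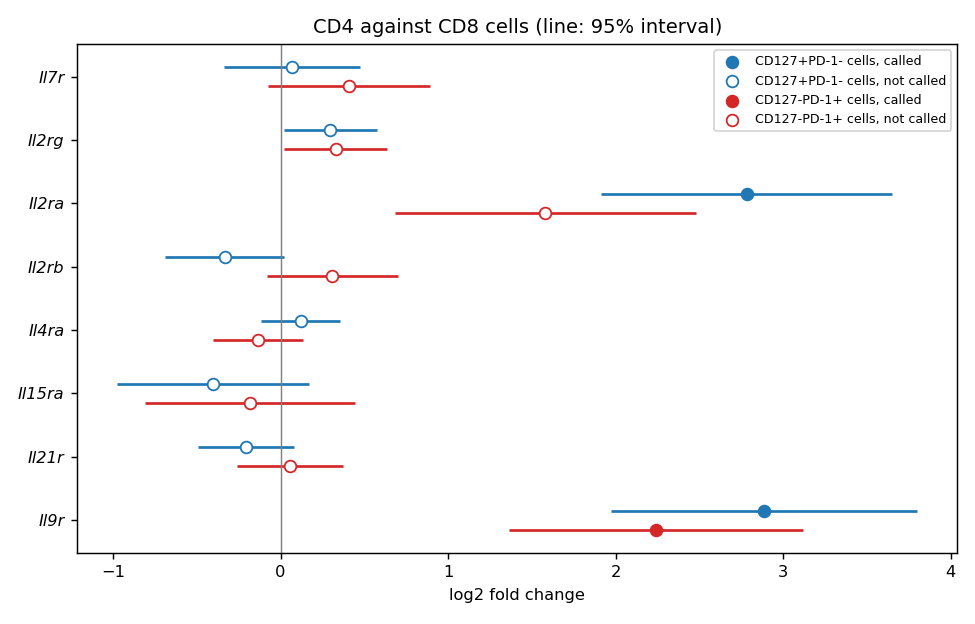
Log2 fold change of each receptor gene in CD4 against CD8 cells, for the CD127+PD-1- state (3 against 3 libraries) and the CD127-PD-1+ state (2 against 3). Lines are 95% intervals of the edgeR fit and filled points passed the adjusted threshold of 0.05. Il2ra and Il9r lie to the right in both states, and none of the other 6 genes was called in either state.

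Genes of regulatory T cells moved with the lineage difference. The sum of 8 such genes without Il2ra (Foxp3, Ikzf2, Ctla4, Tnfrsf18, Tnfrsf4, Gpr83, Itgae and Lrrc32) was 494 to 813 CPM in CD4+CD127+PD-1- and 753 to 1052 CPM in CD4+CD127-PD-1+, against 178 to 209.6 and 198 to 355 CPM in the CD8 groups. Of these, 6 of 8 and 7 of 8 were called higher in CD4 cells in the CD127+PD-1- and CD127-PD-1+ states, and none was at 0 in a group. Over all tested genes 2.76% and 1.6% were called higher in CD4 cells in these states. Foxp3, the defining factor of regulatory T cells, was higher by 5.29 and 6.09. Among genes that innate lymphoid cells also express, Areg (3.86 and 4.42), Gata3 (1.06 and 1.02) and Il1rl1 (4.54 and 1.80) were called higher in CD4 cells in the CD127+PD-1- and CD127-PD-1+ states, while Klre1, a gene of natural killer cells, was called lower in the CD127+PD-1- state (-3.30). These are examples chosen after their values were seen. The part of such cells in the Il2ra and Il9r differences was not tested.

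The gap between state changes in CD4 and in CD8 cells passed for 0 of 7 members in the edgeR fit, and for 1 of 16365 genes (0.00611%). At an unadjusted p under 0.05 the counts were 1 of 7 members, Il2rb, and 897 of all tested genes. With no filter on low counts 85 genes passed and still no member did.

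Because the chains work in pairs, their levels were also compared per kilobase of exon. On this scale Il2rg was the highest of the 8 in every group, at 121 ± 13.2 CPM per kb in CD4+CD127+PD-1-, 108 ± 21.8 in CD4+CD127-PD-1+, 98.6 ± 11.1 in CD8+CD127+PD-1- and 86.3 ± 1.34 in CD8+CD127-PD-1+ cells (mean ± SD over libraries). Second came Il7r in the CD127+PD-1- groups (82.6 ± 13.0 in CD4 and 78.8 ± 10.3 in CD8 cells) and Il2rb in the CD127-PD-1+ groups (77.9 ± 12.8 and 62.9 ± 7.20). Il9r was the lowest in every group, from 0.154 ± 0.0877 in CD8+CD127+PD-1- to 2.13 ± 0.126 in CD4+CD127-PD-1+ cells. Il21r held a middle place at 20.3 to 23.5 CPM per kb. Counted over the longest transcript in place of all exons the order was the same, except that Il7r and Il15ra changed places in CD4+CD127-PD-1+ cells.

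Relative to the gamma chain, Il2rb transcript stood at 36.0% of Il2rg per kb in CD4+CD127+PD-1- and 72.1% in CD4+CD127-PD-1+ cells, and at 55.5% and 72.5% in the CD8 groups (geometric means over libraries). Both CD127-PD-1+ groups thus held nearly the same ratio, and in each lineage their libraries did not overlap with those of the CD127+PD-1- group. The nearest CD8 libraries of the compared groups were close, at log2 ratios of -0.71 and -0.67. Il2rb CPM by itself overlapped between the CD8 groups, and the share of all genes with non-overlapping ratios was not computed. Il4ra went from 13.3% to 7.41% of Il2rg in CD4 and from 15.05% to 10.1% in CD8 cells. Il7r went from 67.9% to 4.11% and from 79.8% to 3.97%, which the sort fixes. Il21r stayed between 16.9% and 23.8% in the 4 groups. These ratios are descriptions of transcripts and carry no test.

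**Figure D4:**
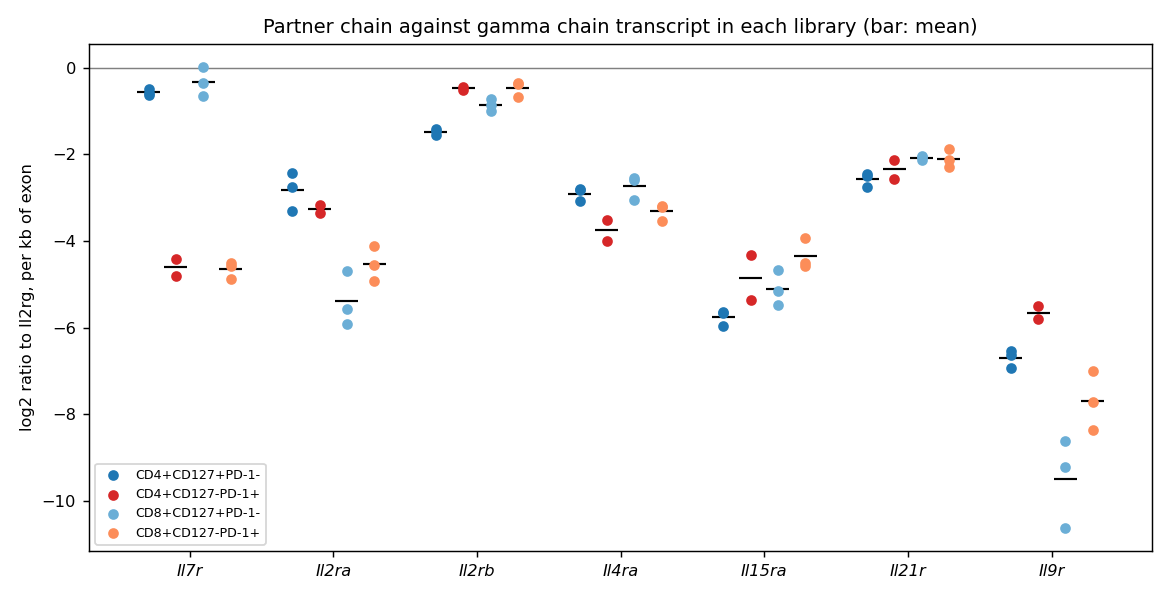
Ratio of each partner chain transcript to Il2rg per kb of exon, on a log2 axis, in each library (points), with the group mean as a bar. A value of 0 means equal transcript per kb. Il2rb lies near -0.47 in both CD127-PD-1+ groups and at -1.47 and -0.85 in the CD127+PD-1- groups, and Il9r lies lowest in all 4.

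With Il7r left out, the 6 other partner chains summed to 101 ± 13.2 CPM per kb in CD4+CD127+PD-1- and 124 ± 14.3 in CD4+CD127-PD-1+, and to 99.2 ± 14.2 and 100.5 ± 9.50 in the CD8 groups. Il2rb made up 43.1% ± 0.990 of that sum in CD4+CD127+PD-1- and 62.5% ± 3.15 in CD4+CD127-PD-1+ libraries, and 55.4% ± 3.56 and 62.5% ± 1.65 in the CD8 groups. Il4ra made up 16.03% and 15.2% in the CD127+PD-1- groups of CD4 and CD8 cells and 6.46% and 8.78% in the CD127-PD-1+ groups. Il2ra made up 17.2% and 9.12% in the CD4 groups but 2.51% and 3.84% in the CD8 groups.

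Genes whose log2 CPM followed each member most closely over the 11 libraries were named as a description. These points fall into 4 groups and share their libraries, so a correlation mostly repeats the group differences. Il7r was followed by Vprbp (r = 0.99), Tcf7 and Taf4b (both 0.98), of which Tcf7 encodes TCF-1, a factor of naive and memory T cells. Il4ra was followed by Dirc2, Camsap2 and Vprbp (all 0.98), and Il7r and Il4ra themselves correlated at 0.96. Il2rb was followed by Rab1b (0.94), Dctn5 and Cxcr3 (both 0.93), the last a chemokine receptor of type 1 T cells, and it ran opposite to Il4ra (-0.82). Closest to Il2ra were Tmem65, Hif1a (both 0.96) and Lamc1 (0.95), and to Il9r AI504432 (0.96), Fyb and Tmem154 (both 0.95). Il2rg went with Ube2j1, Tnip1 (both 0.97) and Rnf19a (0.94), and Il15ra with Oma1, Myo9b (both 0.94) and Apobec3 (0.92). The highest values for Il21r were lower, at 0.83 for H2-Q7, 0.82 for Bap1 and 0.81 for Agpat3.

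Upstream sequence is shown for Il4ra and Il9r. Il4ra fell in both lineages, and Il9r was called higher in CD8 cells, though not in every alternative setting. Each run is the part of the RefSeq promoter window (GRCm38.p6, 5′ to 3′ on the gene's strand) that lies before every annotated exon of the gene, with a match to the RUNX letters TGTGGTTT in capitals.
Il4ra: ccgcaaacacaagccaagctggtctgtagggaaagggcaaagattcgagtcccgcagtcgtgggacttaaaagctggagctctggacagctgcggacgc
Il9r: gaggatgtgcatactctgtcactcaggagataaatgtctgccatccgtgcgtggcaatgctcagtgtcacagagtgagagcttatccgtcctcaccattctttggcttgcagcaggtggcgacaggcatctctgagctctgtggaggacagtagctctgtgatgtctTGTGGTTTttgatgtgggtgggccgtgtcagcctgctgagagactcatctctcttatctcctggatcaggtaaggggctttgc
The Il4ra run is chr7:125552021-125552119 (plus strand) and the Il9r run chr11:32200280-32200529 (minus strand). In full windows of 300 bases, 250 before and 50 after the start, Il4ra had 62.0% G and C and 25 CpG, and Il9r 54.3% and 5, beside medians of 52.7% and 7 over 32851 promoters, of which 18.4% had at least 25. A set of 5 motifs were searched on both strands of the windows of 7 members, and RUNX (TGTGGTTT) was found 83 bases before the start of Il9r and just inside the start of Il7r, and in 1.78% of all promoters. The STAT letters TTCNNNGAA were found 142 bases before the RefSeq start of Il7r and in 8.30% of promoters, and the FOXO letters GTAAACA 38 bases before that of Il21r and in 3.65%. The Il7r window (chr15:9529827-9530126, minus strand) lies within the GENCODE span of the gene given above. Both Il7r matches are therefore inside the gene as GENCODE annotates it, and not upstream of it. T-box (AGGTGTGA, 1.28% of promoters) and ETS (CCGGAAGT, 3.89%) letters were in no member's window, and Il4ra held none of the 5. Such matches are letters only and say nothing of binding in these cells.

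The cytokines that these receptors bind were at low levels: the highest group means were 30.8 CPM for Il21 and 17.2 CPM for Il4, both in CD4+CD127-PD-1+ cells, and all others were at or below 8.55 CPM. For the pathway lists that follow, the counts stand beside 6.81% of all tested genes called higher and 4.87% called lower in the CD4 state comparison, and 9.05% and 6.56% in the CD8 one. Between lineages the shares were 2.76% and 1.66% in the CD127+PD-1- state and 1.6% and 0.843% in the CD127-PD-1+ state, and no list was tested against them. Of 8 ligand genes 5 passed the filter, and Il7, Il9 and Tslp did not, with Il9 at 0 counts in all 11 libraries. In the CD4 state comparison 2 of 5 rose and none fell (median change 2.16): Il21 went from 2.03 ± 0.463 to 30.8 ± 6.89 CPM (log2 change 3.91 ± 0.40, edgeR adjusted p = 0.000268) and Il15, a cytokine made chiefly by myeloid and stromal cells, from 0.426 ± 0.379 to 5.14 ± 1.86 CPM (3.58 ± 0.78, adjusted p = 0.0131). In CD8 cells 1 of 5 rose, Il15, by 2.30 ± 0.63 (adjusted p = 0.0283, median of the list 0.70). The myeloid genes given above rose in the same libraries, and their part in the Il15 change was not tested. CD4 cells held more Il4 (5.64), Il21 (3.39) and Il2 (1.64) than CD8 cells in the CD127+PD-1- state, 3 of 5 genes. In the CD127-PD-1+ state 4 of 5 were higher in CD4 cells, Il21 by 5.62, Il4 by 5.94, Il2 by 1.98 and Il13 by 3.03.

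Of the further receptor partners, Il13ra1, which joins Il4ra in the second IL-4 and IL-13 receptor, rose in both lineages while Il4ra fell. It went from 1.85 ± 1.07 to 10.5 ± 4.33 CPM in CD4 cells (log2 change 2.51 ± 0.57, edgeR adjusted p = 0.0164) and from 2.71 ± 1.63 to 16.9 ± 5.77 CPM in CD8 cells (2.64 ± 0.52, adjusted p = 0.00545). Crlf2, the partner of Il7r in the receptor for thymic stromal lymphopoietin, was not called in any comparison. The myeloid genes moved the same way in these libraries, and their part in the Il13ra1 change was not tested. Neither gene was called between lineages, where Il13ra1 gave -0.55 and -0.69.

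**Figure D5:**
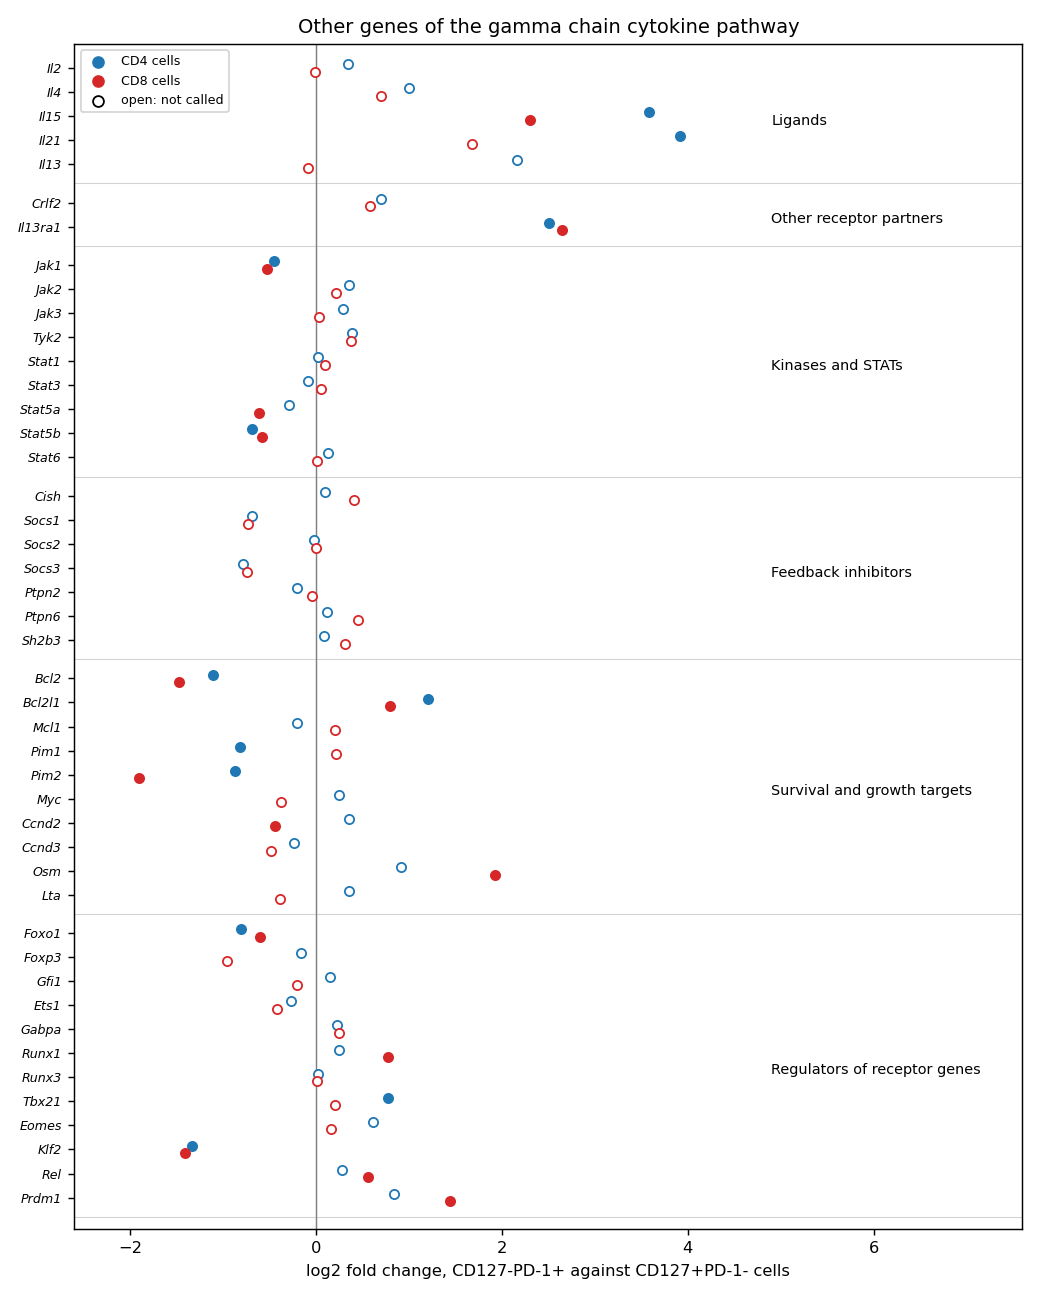
Log2 fold change in CD127-PD-1+ against CD127+PD-1- cells for 45 tested genes of the gamma chain cytokine pathway, in CD4 and CD8 cells, grouped by role. Filled points passed the adjusted threshold of 0.05 in the edgeR fit. Il15, Il13ra1 and Bcl2l1 are higher and Jak1, Stat5b, Bcl2, Pim2, Foxo1 and Klf2 lower in both lineages.

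Downstream are the kinase and STAT genes. In CD4 cells 2 of 9 were called lower and none higher, Stat5b (-0.69 ± 0.14, edgeR adjusted p = 0.00889) and Jak1 (-0.45 ± 0.093, adjusted p = 0.0105), with a list median of 0.023. In CD8 cells 3 of 9 were called lower, Jak1 (-0.53 ± 0.083, adjusted p = 0.00146), Stat5b (-0.58 ± 0.12, adjusted p = 0.00857) and Stat5a (-0.62 ± 0.16, adjusted p = 0.0225), with a median of 0.032. Jak1 was also lower in CD4 than in CD8 cells in the CD127+PD-1- state (-0.41, adjusted p = 0.0150) and was -0.33 in the CD127-PD-1+ state (adjusted p = 0.106), where 0 of 9 passed. Jak3, the kinase bound by the gamma chain, was not called in any comparison.

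Of 7 feedback inhibitors of cytokine signalling, Socs2 and Cish were called between lineages and the other 5 were not. In the edgeR state comparisons 0 of 7 passed: the most abundant in CD4 cells, Cish, had a log2 difference of 0.098 there, and the most abundant in CD8 cells, Ptpn6, one of 0.45 there. In the CD127+PD-1- state Socs2 (2.63 ± 0.21, edgeR adjusted p = 4.06e-05) and Cish (1.54 ± 0.33, adjusted p = 0.0212), both known STAT5 targets, were higher in CD4 cells, 2 of 7 genes. In the CD127-PD-1+ state Socs2 alone was called higher (2.62 ± 0.22, adjusted p = 8.33e-05), 1 of 7. Socs2 measured 22.5 ± 2.70 and 22.1 ± 1.58 CPM in the CD4 groups against 3.61 ± 0.905 and 3.60 ± 0.448 CPM in the CD8 groups, so the lineages differed and the states lay close together.

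Among 10 survival and growth targets the direction was mixed. In CD4 cells 1 rose, Bcl2l1 (1.21 ± 0.21, edgeR adjusted p = 0.00470), and 3 fell, Pim1 (-0.82), Pim2 (-0.88) and Bcl2 (-1.11, adjusted p = 0.0478). In CD8 cells 2 rose, Bcl2l1 (0.79) and Osm (1.93), and 3 fell, Pim2 (-1.90 ± 0.21, adjusted p = 0.000214), Bcl2 (-1.48 ± 0.29, adjusted p = 0.00516) and Ccnd2 (-0.45). Osm ranged from 1.61 to 4.85 CPM in CD8+CD127+PD-1- and from 4.67 to 17.0 CPM in CD8+CD127-PD-1+ libraries. Myeloid and neutrophil genes rose in the same CD8 comparison, and their part in the Osm change was not tested. Bcl2, an anti-apoptotic gene that IL-7 maintains, went from 171 ± 41.3 to 79.3 ± 47.9 CPM in CD4 and from 263 ± 42.7 to 94.4 ± 14.8 CPM in CD8 cells, while Bcl2l1, which encodes BCL-XL, went from 9.40 ± 0.9645 to 21.7 ± 1.62 and from 7.71 ± 0.904 to 13.4 ± 3.13 CPM. List medians were 0.019 and -0.38. Between lineages in the CD127+PD-1- state Myc (-1.33) and Pim2 (-1.26) were lower and Pim1 (0.86) higher in CD4 cells, and in the CD127-PD-1+ state Ccnd2 was higher (0.96), 1 of 10.

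Of 12 known regulators of these receptor genes, Foxo1 and Klf2 fell in both lineages. Foxo1, a factor known to drive Il7r, changed by -0.80 ± 0.13 in CD4 (edgeR adjusted p = 0.00276) and by -0.60 ± 0.11 in CD8 cells (adjusted p = 0.00416), and Klf2, a factor of quiescent T cells, by -1.34 ± 0.24 (adjusted p = 0.00558) and by -1.40 ± 0.21 (adjusted p = 0.00111). Tbx21, which encodes T-bet, a factor known to act on Il2rb, rose in CD4 cells (0.77 ± 0.21, adjusted p = 0.0356), which made 1 higher and 2 lower of 12 with a median of 0.19. In CD8 cells Runx1 (0.78), Prdm1 (1.45) and Rel (0.56) rose, 3 higher and 2 lower of 12 with a median of 0.086. Between lineages Foxp3 (5.29 and 6.09) and Runx1 (1.11 and 0.58) were higher and Eomes, a factor of CD8 memory cells, lower (-5.50 and -5.05) in CD4 cells in the CD127+PD-1- and CD127-PD-1+ states, 2 higher and 1 lower of 12 in each. For none of the 6 lists did any gene pass the test of whether the state changes differed between CD4 and CD8 cells.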

How the data were processed

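The authors deposited raw read counts per gene, made per the submitters' processing notes with STAR and featureCounts on GRCm38; their versions, the annotation and the strand setting: not given in the sources used here. RNA (2 ng per library) was amplified by single primer isothermal amplification, per the labels' protocols. Of the table's columns 11 matched labelled samples and 1 further column was not used. Per the labels, quality control removed another sample of the CD4+CD127-PD-1+ group. Counts were analysed with edgeR 4.0.16 (R 4.3.3): filterByExpr defaults, TMM scaling, a quasi-likelihood fit of 4 group means to all 11 libraries, and Benjamini-Hochberg adjustment over 16365 genes at 0.05. SE was taken as log2 fold change over the root of its F value. P-values measure the spread between pools, which may be partly technical. Depth of 10.6 M to 16.1 M counts limits precision for Il9r most. The script was tested on simulated data. Alternatives were DESeq2 1.42.0, limma 3.58.1 (voom), RLE scaling, other count filters, no mitochondrial genes, replicate blocks, compared groups only, and leaving out each library.

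The receptor genes, pathway lists and marker lists were chosen with earlier results of these data known. Named besides the receptor genes were the 3 genes with the highest correlation of log2 CPM (average at least 4, prior count 2) to each, leaving out predicted genes, pseudogenes and antigen receptor segments, and from each pathway list the 3 called genes with the smallest p in each state comparison and 2 in each lineage comparison. Further called genes of these lists, and marker genes given as examples, were chosen after their values were seen. A marker gene, and the list result that needs it, is not reported here. Sequences came from GRCm38 with GENCODE M21 and from the RefSeq promoter table, which matched 7 of 8 genes.

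Replicate numbers were checked by correlating deviations from group means of same-numbered libraries. For CD4 against CD8 cells in the CD127+PD-1- state all 3 pairs correlated above 0.1 (0.15 to 0.32), so these libraries may be paired by the numbers in the labels. Libraries with different numbers were not compared, so pairing was not established. The main fit had no block, and the Il2ra and Il9r calls of that comparison held with either block. For the other comparisons there were fewer than 3 pairs or not all exceeded 0.1, so pairing was neither shown nor excluded. Their values ran from -0.16 to 0.27 by the title numbers and from 0.088 to 0.33 by the description numbers.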

Additional observations from a re-analysis of the deposited data

How the results depend on the processing

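Over 20 alternative settings (19 for the difference between state changes) the 8 receptor genes gave 792 log2 fold changes, of which 759 kept direction and side of the threshold, 12 lost the call, 8 gained it and 13 changed sign. The changes of sign were all of uncalled values when 1 library was left out. Their ranges over the 11 omissions were, in the CD4 state comparison, -0.37 to 0.032 for Il2rg, and between lineages -0.093 to 0.18 for Il7r in the CD127+PD-1- state and -0.064 to 0.76 for Il7r, -0.53 to 0.083 for Il15ra and -0.038 to 0.19 for Il21r in the CD127-PD-1+ state. For the difference between state changes they were -0.12 to 0.69 for Il7r, -0.19 to 0.22 for Il2rg and -0.13 to 0.50 for Il15ra. Among the 7 members other than Il7r, the number called higher in the CD4 state comparison (1) was 2 in the compared groups only and 0 to 1 when single libraries were left out. In the CD8 state comparison it (1) was 0 with limma-voom, 0 in the compared groups only, and 0 to 1 over the omissions. Without CD8+CD127+PD-1- replicate 3 that 1 was Il2ra in place of Il9r. Between lineages in the CD127-PD-1+ state it (1) was 2 with DESeq2, 2 with no filter on low counts, 2 in the compared groups only, and 0 to 2 over the omissions, 0 without CD4+CD127-PD-1+ replicate 2 or CD8+CD127-PD-1+ replicate 2. With a replicate block on the number in the title or in the description, the count was 0 in the CD8 state comparison in both cases (Il9r 1.51, adjusted p = 0.0515, and 1.09, adjusted p = 0.128, edgeR) and 2 between lineages in the CD127-PD-1+ state in both cases (Il2ra 1.78, adjusted p = 0.0271, and 1.77, adjusted p = 0.00467). The block changed no other call on the receptor genes, including those between lineages in the CD127+PD-1- state. Leaving out a CD4+CD127-PD-1+ library leaves 1 sample, which is assumed to vary like the other groups.

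Over all tested genes, calls ranged from 976 to 2383 (1912 as reported) in the CD4 state comparison, from 1475 to 3079 (2555) in the CD8 state comparison, from 378 to 1215 (723) and 126 to 791 (400) between lineages in the CD127+PD-1- and CD127-PD-1+ states, and from 0 to 85 (1) for the difference between state changes. The cause of these differences was not tested, beyond the fewer libraries or other gene sets that the settings entail. Precision was lowest for Il9r in CD8 cells, at 5 to 45 counts per library.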
